A study of Bos taurus with 10 samples.

Results

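Integrins and laminins are the receptors and the basement membrane proteins through which cells hold on to each other and to the matrix, and 39 of their genes were measured in the bovine corpus luteum, the gland that forms from the ovulated follicle and makes progesterone. The genes are those with a probeset whose only gene symbol begins with ITGA or ITGB, or is LAMA, LAMB or LAMC followed by a number. They were 39 of 18010 genes with such a probeset, and were measured by 41 probesets, since LAMA4 had 3, of which the brightest on average was used. By their roles, 7 are integrin subunits of leukocytes, 18 are other integrin subunits, 10 are laminin chains and 4 carry an integrin name without being a subunit. ITGAX and LAMB4 were not analysed here.

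The tissue came from cows given selenium in different forms, which the labels name only as MIX and ISe, with 5 corpora lutea in the MIX group and 5 in the ISe group. The glands were taken in the early luteal phase, on cycle day 7, and total RNA of each was hybridised to 1 whole-transcript array. The labels state no breed or age, and do not say that the samples of a group are from separate animals. The p-values therefore rest on the variation among these samples, some of which may be technical. Values are log2 signals as the authors deposited them, with array medians between 5.99 and 6.04, and a difference of 1 is a doubling.

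An integrin is a pair of 1 alpha and 1 beta chain that spans the membrane and links matrix proteins or other cells to the cytoskeleton. The beta chain encoded by ITGB2 is made by leukocytes and pairs with the alpha chains of ITGAL, ITGAM, ITGAX and ITGAD, which lets these cells leave the blood and take up coated particles. Laminins are trimers of an alpha, a beta and a gamma chain that form the sheet of basement membranes. In the ovary the basement membrane of the follicle breaks down at ovulation, and capillaries with basement membranes of their own grow into the corpus luteum.

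The samples carried the marks of luteal tissue. Markers of steroidogenic luteal cells averaged between 11.02 and 11.22 log2 over 7 genes in MIX arrays and between 11.12 and 11.32 in ISe arrays. Among the 19145 probesets tested, MIX 8 scored 32.8 on the first principal component, where all other arrays scored -9.5 to 1.3. On the second component MIX 1 scored 26.6, where all others scored -11.8 to 6.1. Results that rest on these arrays are given without both.

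The leukocyte integrin genes ITGB2, ITGAL and ITGAM, the laminin receptor chain ITGA6 and the vitronectin receptor chain ITGB3 had higher means in MIX, by 1.18-fold to 1.39-fold, while the laminins lay close to equality. No member differed past the adjusted threshold: limma, with Benjamini-Hochberg adjustment over 19145 probesets, called 0 of 39 members and 0 of all probesets (0%) at an adjusted p under 0.05. At an unadjusted p under 0.05 there were 5 members, ITGB2, ITGAL, ITGAM, ITGA6 and ITGB3, all higher in MIX. That is 12.8% of the members, against 4.79% of all probesets in either direction (2.67% on the higher side, 2.12% on the lower). Of the 39 members 30 had a higher mean in MIX, or 76.9%, against 50.4% of all probesets. The median difference, MIX minus ISe, was 0.06 log2 over the members and 0.001 over all probesets. Members share their 10 samples and are not independent of each other, so these shares are a description. In 0 of 39 members were the groups free of overlap, against 0.642% of all probesets. The 5 members became 3 without MIX 1, where ITGAL and ITGAM were lost. Without MIX 1 and MIX 8 together there were 6, where ITGAL was lost, ITGB7 joined on the higher side and ITGAV on the lower. Leaving out 1 array brought in 1 member on the lower side in 3 cases, ITGAV without MIX 8, ITGA5 without MIX 9 and LAMA2 without ISe 5. Without MIX 10, ITGB3BP joined on the higher side and ITGAL and ITGAM were lost. ITGAL was also lost without MIX 8, ISe 5 or ISe 7, and ITGAM without ISe 2 or ISe 5. Over all alternatives that tested them, the unadjusted p was under 0.05 in 15 of 22 for ITGAL and in 17 of 21 for ITGAM.

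**Figure D1:**
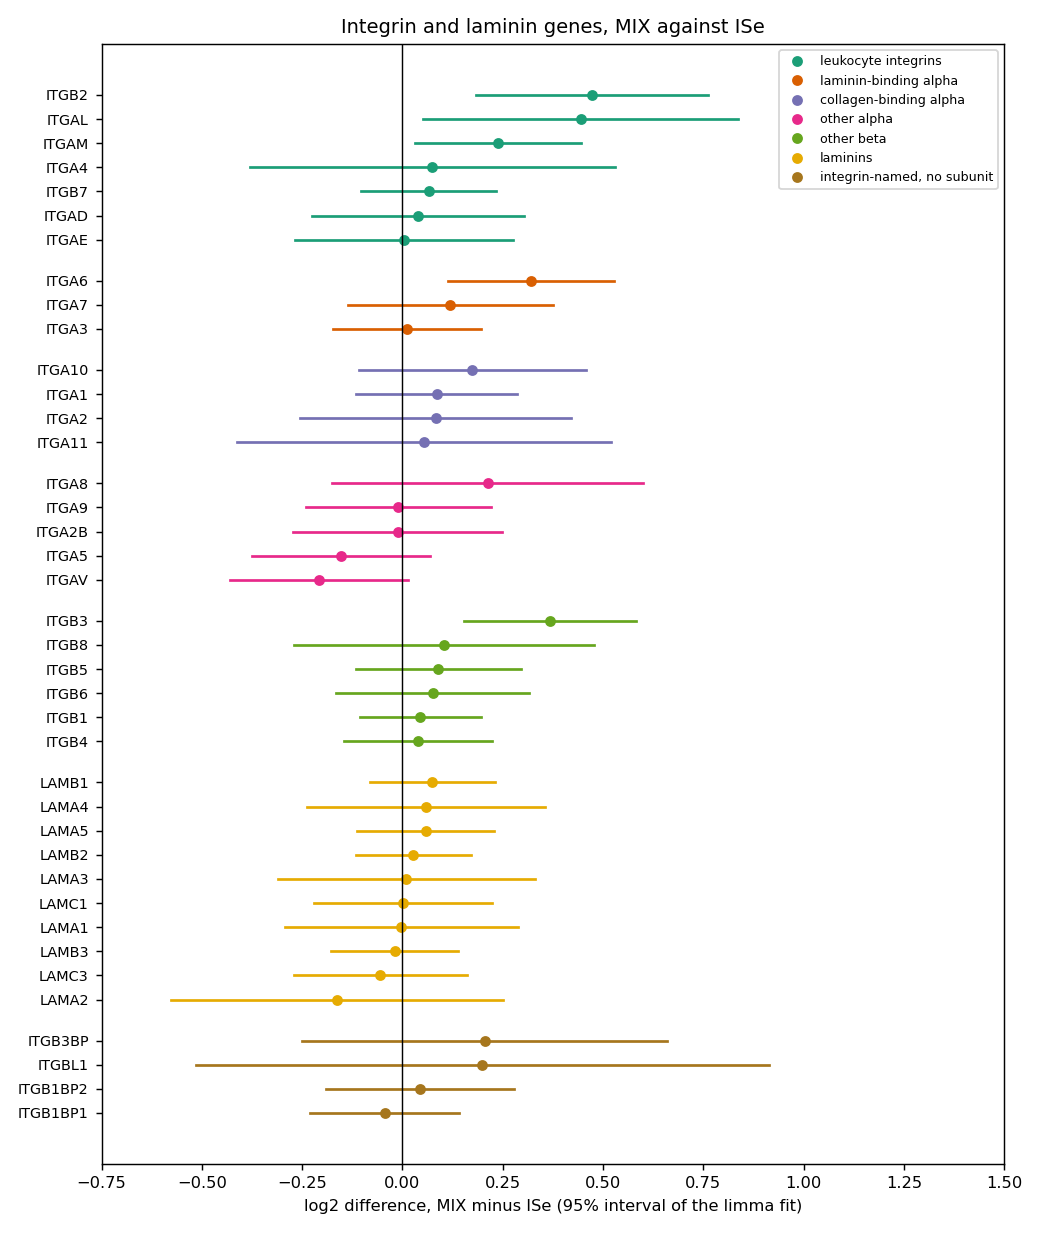
Log2 difference of each gene, MIX minus ISe, with the 95% interval of the limma fit, grouped by role; points right of 0 are higher in MIX. The intervals of ITGB2, ITGAL, ITGAM, ITGA6 and ITGB3 lie above 0, and 0 of 39 genes passed the adjusted threshold.

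Within the leukocyte integrins, the genes of ITGB2 and of its alpha chains ITGAL and ITGAM had higher means in MIX, and the other 4 genes lay near 0. ITGB2, the beta chain shared by this family, had 6.39, 6.43, 6.31, 6.82 and 6.20 log2 in MIX 1, 8, 9, 10 and 11, against 5.72, 6.13, 5.73, 6.20 and 6.01 in ISe 2, 3, 5, 6 and 7. Every MIX array lay at or above the highest ISe array, with MIX 11 and ISe 6 at an identical value. The MIX mean was 6.43 ± 0.23 and the ISe mean 5.96 ± 0.22 (SD, n = 5 each), or 1.39-fold, with a 95% interval of 1.13 to 1.69 and an adjusted p of 0.941 by limma. An exact two-sided permutation test of this gene alone gave p = 0.0159, where the smallest possible is 0.00794.

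ITGAL encodes the alpha chain with which lymphocytes and other leukocytes bind ICAM1 on endothelium. Its values were 6.93, 7.09, 6.39, 7.13 and 6.50 in the 5 MIX arrays, in the order above, against 6.42, 6.77, 6.28, 6.40 and 5.95 in the 5 ISe arrays. MIX 1, 8 and 10 were above all ISe arrays, while MIX 9 and 11 lay within their range. The difference was 1.36-fold (95% interval 1.04 to 1.79, exact permutation p = 0.0635), and 0.31 log2 without MIX 1 and MIX 8. ITGAM, the alpha chain of a complement receptor on macrophages, monocytes and neutrophils, had 6.20, 6.00, 6.09, 6.43 and 6.01 in MIX, against 5.71, 5.99, 5.89, 6.00 and 5.97 in ISe. In 4 of 5 MIX arrays it was above all ISe arrays, and MIX 8 lay just below ISe 6. The difference was 1.18-fold (95% interval 1.02 to 1.36, exact permutation p = 0.0159), or 0.24 ± 0.09 log2 (SE).

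The other 4 leukocyte integrins did not differ beyond the spread between samples. ITGA4, whose chain pairs with those of ITGB7 or ITGB1 and binds VCAM1, had 7.95, 8.62, 8.61, 8.47 and 8.97 in MIX, against 8.99, 8.17, 8.03, 8.48 and 8.60 in ISe. Both groups covered nearly the same wide range, so the 95% interval of the fold ran from 0.77 to 1.44. ITGB7, the partner chain on lymphocytes that home to mucosa, had 5.57, 5.51, 5.79, 5.83 and 5.80 in MIX, against 5.53, 5.64, 5.73, 5.64 and 5.63 in ISe. MIX 9, 10 and 11 lay above every ISe array, while MIX 1 lay below 4 of the 5 ISe arrays and MIX 8 below all 5. Its difference was 0.07 ± 0.08 log2 (SE) and was 0.17 without MIX 1 and MIX 8.

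ITGAE, the alpha chain of lymphocytes that sit in epithelia, had 5.15, 5.12, 5.29, 5.70 and 5.29 in MIX, against 5.03, 5.28, 5.57, 5.35 and 5.30 in ISe. MIX 10 stood well above the other MIX arrays, and the group means were equal to 2 decimals (MIX 5.31 ± 0.23 and ISe 5.31 ± 0.19, SD, n = 5 each). ITGAD, an alpha chain of ITGB2 on macrophages, had 4.77, 4.94, 4.81, 4.90 and 4.86 in MIX, against 4.70, 4.99, 5.13, 4.40 and 4.86 in ISe. The MIX arrays lay inside the range of the ISe arrays. ITGAD, ITGAE and ITGB7 had means under 6 log2, below the median of the arrays, where a change in transcript is measured less firmly. ITGAM and ITGB2 averaged 6.03 and 6.19 log2, close to that median, and were also among the dimmer 50% of probesets.

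As a list, the leukocyte integrins and the other integrins had almost the same median difference, 0.07 log2 over 7 genes and 0.08 over 18, although their means were 0.19 and 0.08. The median of the leukocyte list is the value of ITGA4, which lies close to ITGB7 and ITGAD and well below ITGB2, ITGAL and ITGAM. It was 0.26 without the dimmer 50% of probesets, where only ITGA4 and ITGAL remained, and 0.23 without MIX 1 and MIX 8. Without MIX 1 alone it was 0.22, and without ISe 2 alone 0.19. The mean of the leukocyte list, each gene taken relative to its own mean over the 10 arrays, was -0.02, 0.09, 0.02, 0.31 and 0.07 log2 in MIX 1, 8, 9, 10 and 11, against -0.14, -0.02, -0.11, -0.09 and -0.11 in ISe 2, 3, 5, 6 and 7. MIX 10 was far above the rest, and MIX 1 and ISe 3 were level. For the other integrins MIX 1 and MIX 8 were high instead, with 0.12, 0.12, -0.02, 0.02 and -0.04 in MIX, against 0.01, -0.05, -0.05, 0.02 and -0.12 in ISe. Without these 2 arrays the median of the other integrins was -0.01. Subtracting the second list from the first within each array gave a MIX mean of 0.06 ± 0.16 and an ISe mean of -0.06 ± 0.08 (SD, n = 5 each), with overlapping ranges.

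Markers of macrophages were higher in MIX beside ITGB2, ITGAL and ITGAM. All 14 measured markers averaged higher in MIX, by 0.50 log2 at the median, and 13 had an unadjusted p under 0.05, or 92.9%, against 4.79% of all probesets. The marker lists and the lists of partners below were chosen with earlier results of these data known. Genes of a list also share their 10 samples, so such shares are a description. In the macrophage list and the other marker lists 0 genes passed the adjusted threshold. The macrophage list's mean level per array lay between 6.97 and 7.25 log2 in MIX and between 6.41 and 6.92 in ISe, and the dimmest, MARCO, averaged 5.01 log2. The T and NK cell list averaged higher in MIX for 13 of its 16 markers, by 0.19 at the median, while CD5, CD8B and GZMB averaged lower. In all, 3 of 16 had an unadjusted p under 0.05, 18.8% against 4.79% of all probesets, all higher (NKG7, GZMA and CCL5). Of the 16 markers 12 averaged under 6 log2, with GZMA lowest at 3.95. Levels of this list were 5.46 to 5.86 in MIX and 5.38 to 5.65 in ISe. B and plasma cell markers had 1 of 7 higher in MIX, with levels of 5.06 to 5.42 in MIX and 5.31 to 5.72 in ISe. Markers of neutrophils and eosinophils had 2 of 7 higher, with levels of 4.71 to 5.00 in MIX and 4.85 to 5.03 in ISe, and all 7 averaged under 6 log2. The part of leukocyte number in the integrin values was not tested, and in bulk tissue fewer cells of a type and less RNA per cell cannot be told apart.

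**Figure D2:**
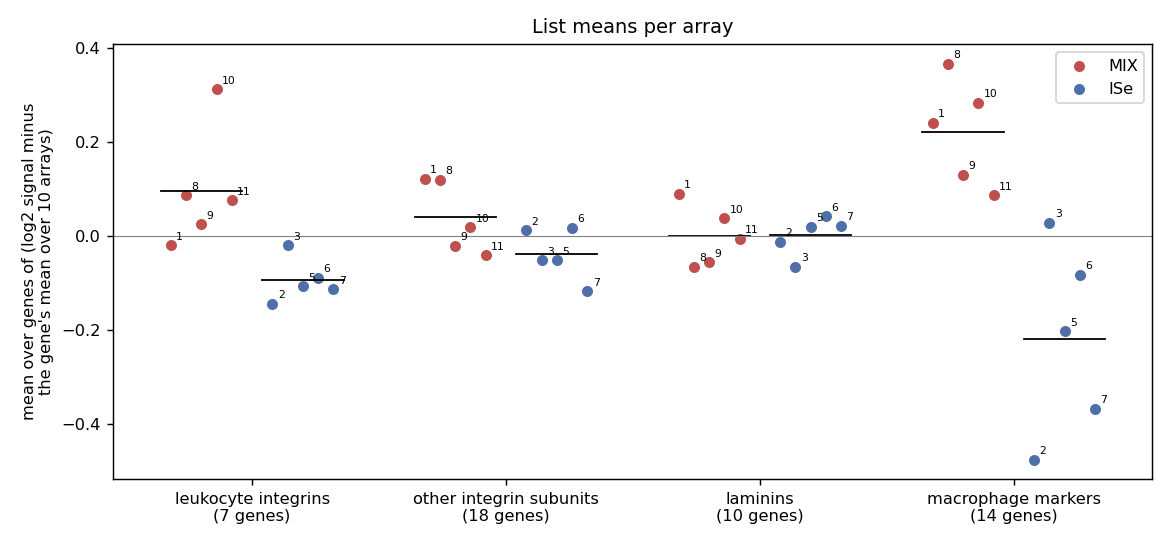
Mean of each list in each array, as the average over its genes of the log2 signal minus the gene's mean over 10 arrays, MIX left and ISe right for each list, with the array number beside each point and a bar at the group mean (n = 5). MIX 10 is highest for the leukocyte integrins, MIX 1 and MIX 8 for the other integrins, the laminins are level between the groups, and all MIX arrays lie above all ISe arrays for the macrophage markers.

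Among the alpha chains that bind laminin, ITGA6 had a higher mean in MIX. ITGA6, a chain of epithelial and endothelial cells that pairs with those of ITGB1 or ITGB4, had 10.24, 10.32, 10.30, 10.28 and 9.99 in MIX, against 10.03, 10.01, 9.72, 10.05 and 9.72 in ISe. MIX 1, 8, 9 and 10 were above every ISe array, and MIX 11 lay inside the range of ISe. The difference was 0.32 ± 0.09 log2 (SE), with a 95% interval of 0.11 to 0.53, an exact permutation p of 0.0317 and an adjusted p by limma of 0.941. It had an unadjusted p under 0.05 in 22 of 22 alternatives, with differences of 0.27 to 0.38 log2. ITGA7, a chain of muscle cells, was at 0.12 ± 0.12 and ITGA3, of epithelia, at 0.01 ± 0.08 log2 (difference ± SE). Endothelial markers, of cells that carry the ITGA6 chain, had 10 of 10 means higher in MIX, against 50.4% of all probesets. Their median difference was 0.16 log2, and 1 of 10 (TEK) had an unadjusted p under 0.05, 10% against 4.79% of all probesets. Their levels were 8.65 to 8.93 in MIX and 8.52 to 8.89 in ISe. Their part in the ITGA6 value was not tested.

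The alpha chains that bind collagen all had means above ISe by small amounts within the spread. ITGA1, found on vessel walls and stromal cells, had 10.61, 10.63, 10.50, 10.84 and 10.60 in MIX, against 10.60, 10.32, 10.78, 10.57 and 10.48 in ISe. The groups overlapped over most of their range, with a difference of 0.09 ± 0.09 log2 (SE). ITGA11, a chain of fibroblasts, had 6.71, 6.29, 5.84, 6.33 and 5.35 in MIX, against 6.08, 6.26, 6.07, 6.02 and 5.82 in ISe. MIX 1 and MIX 11 marked the extremes of all 10 arrays, and the sign of its difference of 0.05 turned to -0.21 without MIX 1 and MIX 8. ITGA2, a collagen receptor of platelets and epithelia, was at 0.08 ± 0.15 and ITGA10, of cartilage, at 0.17 ± 0.13 log2. ITGA1 and ITGA2 are neighbours in the cattle gene table with 0 protein-coding genes between them.

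The other alpha chains, which bind fibronectin, vitronectin and similar ligands, included the 2 lowest integrin differences. ITGAV, which pairs with several beta chains and binds vitronectin and latent TGF-beta, had 11.40, 11.62, 11.20, 11.29 and 11.02 in MIX, against 11.45, 11.62, 11.51, 11.43 and 11.57 in ISe. In 4 of the 5 MIX arrays it was below every ISe array, and MIX 8 was level with the highest, ISe 3. The difference was -0.21 ± 0.10 log2 (SE), with a 95% interval of the fold from 0.74 to 1.01 and an adjusted p of 0.941 by limma. It was -0.29 without MIX 8 and -0.34 without MIX 1 and MIX 8 (adjusted p = 0.944 by limma). ITGA5, the fibronectin receptor chain, had 9.34, 9.20, 9.75, 9.51 and 9.54 in MIX, against 9.46, 9.60, 9.63, 9.67 and 9.76 in ISe, a difference of -0.15 ± 0.10. Its low values were those of MIX 1 and MIX 8, and without them the difference was -0.02. ITGA8, of smooth muscle and mesenchyme, had 8.24, 8.22, 7.74, 7.66 and 7.83 in MIX, against 7.63, 7.75, 7.25, 8.23 and 7.77 in ISe. Again MIX 1 and MIX 8 were the high MIX arrays, and the difference of 0.21 ± 0.18 became 0.02 without them. ITGA9 was at -0.01 ± 0.10 and ITGA2B, the platelet chain, at -0.01 ± 0.12 log2.

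Of the other beta chains, ITGB3 had the highest difference. ITGB3, which forms the vitronectin receptor with ITGAV and the fibrinogen receptor of platelets with ITGA2B, had 6.34, 6.45, 6.05, 6.12 and 6.11 in MIX, against 5.90, 6.08, 5.76, 5.82 and 5.69 in ISe. Only ISe 3 reached into the range of the MIX arrays, just above MIX 9. The MIX mean was 6.22 ± 0.17 and the ISe mean 5.85 ± 0.15 (SD, n = 5 each), or 1.29-fold, with an adjusted p of 0.941 by limma. On the log2 scale the 95% interval was 0.15 to 0.58. ITGB3 averaged 6.03 log2 over the 10 arrays, close to the array medians and among the dimmer 50% of probesets. The exact permutation test gave p = 0.0159, and an unadjusted p under 0.05 stood in 21 of 21 alternatives that tested it, with 0.25 log2 without MIX 1 and MIX 8. Platelet markers had 4 of 7 higher in MIX, with levels of 4.53 to 4.79 in MIX and 4.56 to 4.69 in ISe, and all 7 averaged under 6 log2, with PF4 lowest at 3.49.

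ITGB1, the partner of most alpha chains outside the leukocyte family, was among the steadiest members. It had 11.81, 11.87, 11.56, 11.70 and 11.72 in MIX, against 11.73, 11.56, 11.72, 11.72 and 11.71 in ISe. The difference was 0.04 ± 0.07 log2 (SE), and the 95% interval of the fold was 0.93 to 1.14. ITGB8, which with ITGAV activates TGF-beta, had 6.37, 6.41, 6.49, 5.56 and 6.08 in MIX, against 5.85, 5.97, 6.38, 6.11 and 6.09 in ISe, with MIX 10 lowest of all. ITGB5, another partner of ITGAV, was at 0.09 ± 0.09, ITGB6, an epithelial chain, at 0.08 ± 0.11 and ITGB4, of hemidesmosomes, at 0.04 ± 0.08 log2 (difference ± SE). ITGB6 averaged 3.70 log2, far below the array medians. Epithelial markers had 3 of 6 higher in MIX, and 2 of 6 had an unadjusted p under 0.05, 33.3% against 4.79% of all probesets. Both were lower in MIX (KRT18 at -0.48 ± 0.18 and KRT5 at -0.25 ± 0.07 log2). The epithelial levels were 5.29 to 5.63 in MIX and 5.31 to 5.71 in ISe.

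**Figure D3:**
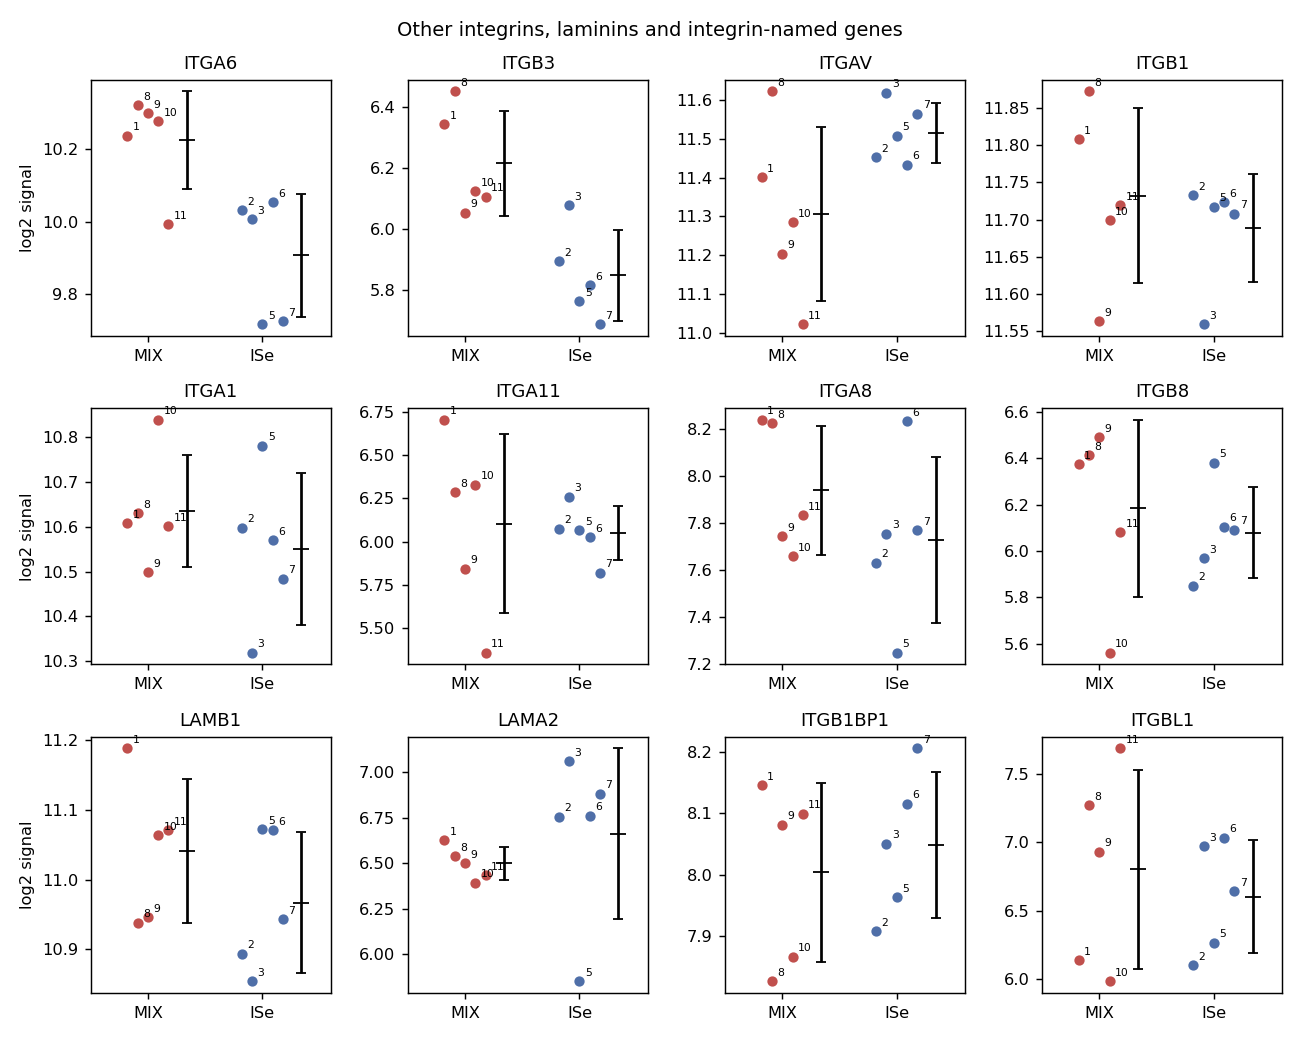
Log2 signal of 8 other integrin genes, 2 laminins and 2 integrin-named genes in each array, MIX left and ISe right in each panel, with the array number beside each point and the mean ± SD (n = 5) beside each group; each panel has its own axis. ITGA6 and ITGB3 are high in most MIX arrays, ITGAV is low in 4 of 5 MIX arrays, and ISe 5 is lowest for LAMA2.

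The laminin chains were nearly equal in both groups. Of the 10 genes, 6 averaged higher and 4 lower in MIX, the median difference was 0.01 log2, and 0 genes were at an unadjusted p under 0.05. For 7 of the 10 the 95% interval of the fold lay between 0.8 and its inverse. LAMB1, the beta chain of most basement membranes of soft tissue, had 11.19, 10.94, 10.95, 11.06 and 11.07 in MIX, against 10.89, 10.85, 11.07, 11.07 and 10.94 in ISe. MIX 1 was highest, the other arrays overlapped, and the difference was 0.07 ± 0.07 log2 (SE).

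LAMA2, the alpha chain of muscle and nerve basement membranes, had the lowest difference of the laminins. It had 6.63, 6.54, 6.50, 6.39 and 6.43 in MIX, against 6.75, 7.06, 5.85, 6.76 and 6.88 in ISe. All 5 MIX arrays lay below 4 of the ISe arrays and above ISe 5. The difference of -0.16 ± 0.19 became -0.36 ± 0.08 log2 without ISe 5 (adjusted p = 0.983 by limma), so 1 array decided its size. The endothelial chains LAMA4 and LAMA5 were at 0.06 ± 0.13 and 0.06 ± 0.08, and the 3 probesets of LAMA4 gave 0.01 to 0.07 log2. LAMC1, the gamma chain of most laminins, was at 0.002 ± 0.10 and LAMA1, an early embryonic and epithelial chain, at -0.003 ± 0.13. LAMB2, LAMB3, LAMA3 and LAMC3 were at 0.03 ± 0.07, -0.02 ± 0.07, 0.01 ± 0.15 and -0.05 ± 0.10 log2 (difference ± SE).

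The 4 genes that carry an integrin name without being a subunit did not differ beyond their spread. ITGB1BP1, whose product binds the tail of the ITGB1 chain, had 8.15, 7.83, 8.08, 7.87 and 8.10 in MIX, against 7.91, 8.05, 7.96, 8.12 and 8.21 in ISe. ITGBL1, a secreted protein with repeats like those of beta chains, had 6.14, 7.27, 6.93, 5.98 and 7.69 in MIX, against 6.10, 6.97, 6.27, 7.03 and 6.64 in ISe. It was the most variable member, with an SD of 0.57 log2 over the 10 arrays, above that of 98.9% of all probesets. Its interval of the fold ran from 0.70 to 1.88. ITGB3BP, a centromere protein, was at 0.20 ± 0.21, and at 0.38 ± 0.16 without MIX 10 (adjusted p = 0.909 by limma), and ITGB1BP2, a muscle protein, at 0.04 ± 0.11 log2.

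Spread between single corpora lutea differed among the members. After ITGBL1, the SD over all 10 arrays was 0.38 log2 for ITGAL, 0.37 for ITGB3BP, 0.36 for ITGA11, 0.35 for ITGA4 and 0.33 each for ITGB2 and LAMA2, all above 92% of probesets or more (92.3% for LAMA2). The steadiest were LAMB2 at 0.085, ITGB1 at 0.095, and LAMB3 and LAMB1 at 0.10 log2, above 14.3% to 24.1% of probesets. These SDs include any difference between the groups.

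Partner chains moved together in some cases when followed over the 10 arrays. In all, 44 relations were computed, 30 between textbook partner chains and 14 of leukocyte integrins with marker means, and 7 had an adjusted permutation p under 0.05 for Pearson's r. ITGB2 followed its alpha chain ITGAM (r = 0.916, permutation p = 0.00029, adjusted 0.00689, and rho = 0.875, permutation p = 0.00172, adjusted 0.0189). Without MIX 10 and ISe 2, the arrays farthest from the median of ITGB2, r was 0.756 (adjusted exact permutation p = 0.240). With the group means subtracted it was 0.851 (adjusted permutation p = 0.061). With ITGAL, r was 0.731 (permutation p = 0.0152, adjusted 0.0608, and rho = 0.711, permutation p = 0.0246), falling to 0.518 with the group means subtracted. With its alpha chain ITGAD, ITGB2 had r = -0.074 (adjusted permutation p = 0.924). ITGB7 followed ITGAE (r = 0.770, permutation p = 0.00691, adjusted 0.0434, and rho = 0.766, permutation p = 0.0128, adjusted 0.0803), with 0.804 after subtraction of the group means and 0.754 without MIX 10 and MIX 11. The adjusted permutation p was 0.061 after that subtraction, and the adjusted exact permutation p was 0.240 without those arrays. With ITGA4, ITGB7 had r = 0.042 (adjusted permutation p = 0.935).

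ITGB2 also followed the mean of the macrophage markers (r = 0.854, permutation p = 0.00141, adjusted 0.0155, and rho = 0.954, permutation p = 1.00e-04, adjusted 0.0044). Without MIX 10 and ISe 2, r was 0.83 (adjusted exact permutation p = 0.226). With the group means subtracted it was 0.622 (permutation p = 0.078, adjusted 0.343), so within the groups the relation missed the threshold. ITGAL had r = 0.814 with the same mean (adjusted permutation p = 0.0421, and rho = 0.758, adjusted 0.0829), 0.689 without MIX 8 and MIX 10 and 0.693 within groups. With the mean of the T and NK cell markers ITGB2 had r = 0.785 (adjusted permutation p = 0.0423, and rho = 0.742, adjusted 0.0871), 0.571 without MIX 10 and ISe 2 and 0.574 within groups. ITGAL had r = 0.753 with the T and NK cell mean (adjusted permutation p = 0.059) and 0.583 within groups. ITGAM had r = 0.738 with the macrophage mean (adjusted permutation p = 0.059) and 0.463 within groups. With the T and NK cell mean ITGAM had 0.616 (adjusted permutation p = 0.163) and 0.319 within groups. Without MIX 1 and MIX 8 these relations had r = 0.837, 0.847 and 0.865 (adjusted exact permutation p under 0.05). ITGAD, ITGA4, ITGAE and ITGB7 had r between -0.244 and 0.355 with the marker means over all arrays. Without MIX 1 and MIX 8, ITGB7 had r = 0.848 with the macrophage mean (adjusted exact permutation p = 0.0402). With the T and NK cell mean it had 0.734 there (adjusted exact permutation p = 0.137). Without MIX 10 and MIX 11 the same r values of ITGB7 were -0.055 and -0.122. With the group means subtracted they were -0.071 and 0.156, so the ITGB7 values depended on the arrays included. ITGAE had 0.569 and 0.512 without MIX 1 and MIX 8 (adjusted exact permutation p = 0.318 and 0.397).

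Outside the leukocyte family, LAMC1 and LAMA4, the gamma and alpha chains of a laminin of vessel walls, moved together (r = 0.925, permutation p = 0.00047, adjusted 0.00689, and rho = 0.894, permutation p = 0.00102, adjusted 0.015). LAMA4 had 9.17, 9.02, 9.15, 9.55 and 9.28 in MIX, against 9.15, 8.95, 9.63, 9.03 and 9.12 in ISe. LAMC1 had 9.58, 9.38, 9.56, 9.83 and 9.69 in MIX, against 9.64, 9.53, 9.89, 9.51 and 9.46 in ISe. MIX 10 and ISe 5 were the high arrays for both genes, and without them r was 0.707 (exact permutation p = 0.0481, adjusted 0.240). With the group means subtracted r was 0.933 (adjusted permutation p = 0.0288). Their beta partner LAMB1 had r = 0.414 with LAMC1 and 0.486 with LAMA4, with adjusted permutation p-values of 0.541 and 0.429. LAMC1 and another alpha chain, LAMA2, had r = -0.721 (adjusted permutation p = 0.0636). Without MIX 1 and MIX 8 their r was -0.859 (adjusted exact permutation p = 0.0269), and without MIX 10 and ISe 5 it was -0.240 (adjusted exact permutation p = 0.799).

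ITGB6 and its partner ITGAV ran in opposite directions (r = -0.887, permutation p = 0.00043, adjusted 0.00689, and rho = -0.915, permutation p = 0.00059, adjusted 0.013). It held with the group means subtracted (r = -0.949, adjusted permutation p = 0.0288), and without MIX 8 and MIX 11 r was -0.777. ITGB6 had 3.71, 3.38, 3.83, 3.73 and 4.02 in MIX, against 3.70, 3.55, 3.58, 3.85 and 3.62 in ISe, a level at which signal over background is not known. ITGB3 and ITGAV had r = -0.092 over all arrays and 0.707 with the group means subtracted (adjusted permutation p = 0.178). The 2 genes differed between the groups in opposite directions. Their r was -0.592 without MIX 1 and MIX 8 (adjusted exact permutation p = 0.303) and -0.313 without MIX 8 and ISe 7. The 12 relations of ITGB1 with alpha chains had r between -0.755 with ITGA5 and 0.713 with ITGA7, the smallest adjusted permutation p being 0.059. Without MIX 1 and MIX 8, 10 relations passed the adjusted threshold. Of the 7 relations, 2 passed the adjusted threshold with the group means subtracted, and 0 passed with the 2 farthest arrays left out, where 8 arrays remained and the smallest adjusted exact p was 0.226.

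**Figure D4:**
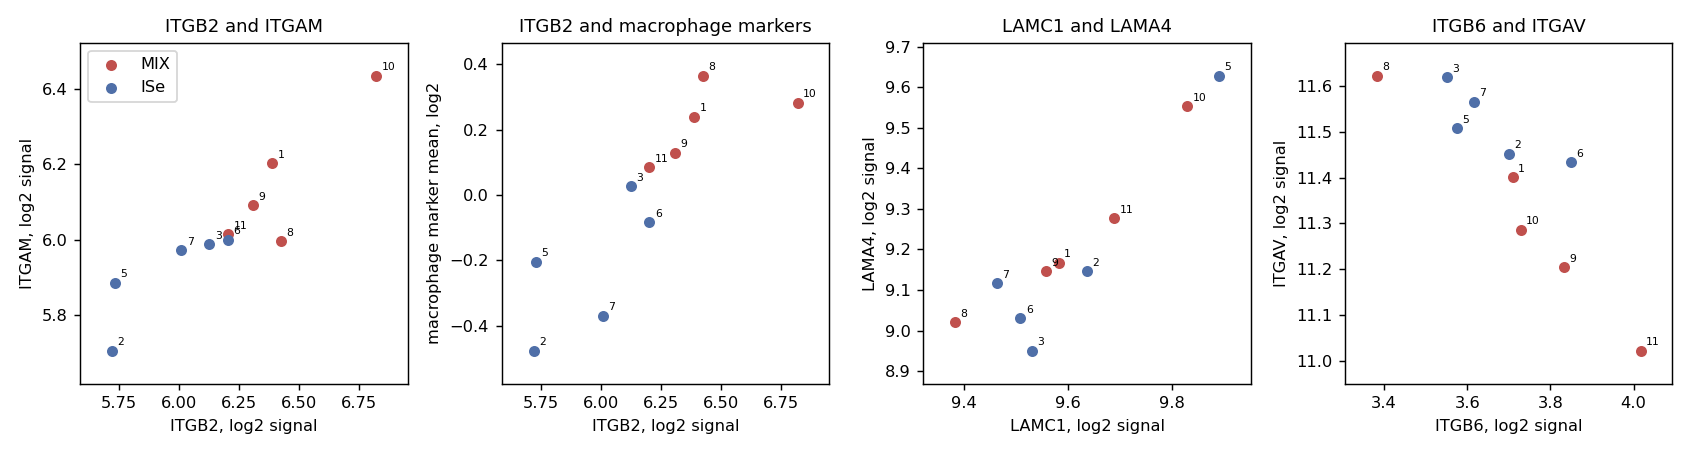
Log2 signals of 3 partner pairs and of ITGB2 with the mean of 14 macrophage markers (each minus its mean over 10 arrays), 1 point per array with its number, MIX in red and ISe in blue. ITGB2 rises with ITGAM (r = 0.916) and with the marker mean (r = 0.854), LAMA4 with LAMC1 (r = 0.925), and ITGAV falls as ITGB6 rises (r = -0.887).

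Among the cytoplasmic proteins that switch integrins on and tie them to actin, 2 of 25 genes measured had an unadjusted p under 0.05, both higher in MIX, 8% against the 4.79% of all probesets. PTK2B, an adhesion kinase, was 1.37-fold (MIX 5.24 ± 0.15 and ISe 4.79 ± 0.21, SD, n = 5 each). APBB1IP, an adaptor that binds RAP1 and talin, was also 1.37-fold (MIX 5.05 ± 0.31 and ISe 4.60 ± 0.31). PTK2B and APBB1IP averaged 5.02 and 4.82 log2 over the 10 arrays, below the array medians. Next came TNS1, an actin tether, at 0.14 ± 0.07 and TLN2, a talin, at -0.16 ± 0.10 log2 (difference ± SE). The median over the 25 was 0.01 log2, and 0 passed the adjusted threshold.

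Of 12 counter-receptors and bound proteins of leukocyte integrins, 1 was higher and 1 lower at an unadjusted p under 0.05, 16.7% against 4.79% of all probesets. FGG, the fibrinogen gamma chain, had 9.64, 9.80, 9.88, 8.92 and 10.27 in MIX, against 9.19, 9.03, 8.96, 8.18 and 8.61 in ISe, a 1.87-fold difference with only MIX 10 below the highest ISe arrays. FGA and FGB, of the other fibrinogen chains, averaged 4.83 and 3.29 log2, below the array medians. Their differences were 0.04 ± 0.08 and 0.04 ± 0.15 log2 (SE), so only the FGG chain was higher. VCAM1, the endothelial and stromal ligand of ITGA4, had 9.59, 8.50, 9.31, 9.63 and 8.82 in MIX, against 10.02, 9.07, 10.31, 9.66 and 9.87 in ISe, 0.65-fold. ISe 3 was the only ISe array in the range of MIX. C3, whose fragment is bound by the ITGAM chain, was at 0.33 ± 0.18, and ICAM1, bound by ITGAL, at 0.12 ± 0.10 log2. The list median was 0.06 log2.

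Partners of laminins in basement membranes had 1 of 9 genes at an unadjusted p under 0.05 (11.1% against 4.79%), BCAM, a laminin receptor outside the integrin family, at 0.21 ± 0.07 log2 and higher in MIX. NID2, which bridges laminin and collagen, was at -0.21 ± 0.10, AGRN, a heparan sulfate proteoglycan, at 0.11 ± 0.05 and SPARC, a collagen-binding glycoprotein, at -0.06 ± 0.05, and the list median was -0.03. Of 11 matrix ligands of other integrins, SPP1, osteopontin, a ligand of ITGAV pairs that macrophages also secrete, was the only one at an unadjusted p under 0.05 (9.09% against 4.79%). It had 9.47, 9.24, 9.98, 9.89 and 9.34 in MIX, against 8.54, 9.12, 9.25, 8.98 and 8.55 in ISe, 1.62-fold, with MIX 8 and ISe 5 level. The collagen genes COL1A2, COL3A1 and COL1A1 were at -0.18 ± 0.10, -0.19 ± 0.12 and -0.12 ± 0.10 log2. The list median was -0.02, and in these 4 lists 0 genes passed the adjusted threshold.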

How the data were processed

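Total RNA of 10 corpora lutea was measured on 1-colour Affymetrix whole-transcript arrays. The authors deposited 1 log2 signal per probeset and array. Per the submitters' processing notes, the tools were GCOS 1.2 and Partek, without a stated use. No source used here gives the background correction, the normalisation or the build. Values ran from 0.54 to 14.17 with near-equal array medians and were used as deposited. The number of arrays limits the precision. Genes came from the platform annotation, all 39 members were found in the current cattle gene table, and no probeset with several symbols was named.

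Groups came from the sample titles. limma 3.58.1 in R 4.3.3 (lmFit, eBayes) compared MIX with ISe over the 19145 probesets with a symbol, two-sided, adjusted by Benjamini-Hochberg. Scripts were tested on simulated data. For single genes all 252 splits of the arrays were used, and relations took 100000 permutations, adjusted over 44. Group-subtracted relations were permuted within groups. The rule named every member, with values per array for leukocyte integrins, members at an unadjusted p under 0.05, and the gene with the highest mean and the gene with the largest SD in each role group, and, in each list of partners, at most 4 genes, those of lowest p. Array values of ITGA5, LAMA4, LAMC1, ITGB6, FGG, VCAM1 and SPP1 were chosen after they were seen. FGA and FGB were named beside FGG outside that rule. The members and lists were chosen with earlier results of these data known. Alternatives were other scalings, filters, probeset sets, variance models and leaving out arrays.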

Additional observations from a re-analysis of the deposited data

Results flagged for a closer look

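A single array stood far from the others of its group in 9 of the 78 groups of 5 values examined, where chance gives about 1 in 20 groups, or 3.9. In the MIX group ITGA6 was low in MIX 11 at 9.99 log2, with the other 4 between 10.24 and 10.32. ITGAE was high in MIX 10 at 5.70, with the others between 5.12 and 5.29, and LAMA3 high in MIX 1 at 6.20, with the others between 5.40 and 5.59. In the ISe group ISe 2 had ITGA3 high at 7.00, with the others between 6.63 and 6.72, and ITGA9 low at 9.08, with the others between 9.54 and 9.61. ISe 5 had LAMA2 low at 5.85, with the others between 6.75 and 7.06, and LAMA4 high at 9.63, with the others between 8.95 and 9.15. ITGB1 was low in ISe 3 at 11.56, with the others between 11.71 and 11.73. LAMA5 was low in ISe 7 at 7.05, with the others between 7.23 and 7.30.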

How the results depend on the processing

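No paired analysis was possible because the groups share no replicate number. The count of 0 members past the adjusted threshold was 0 under every alternative. The 5 members at an unadjusted p under 0.05 became 2 without the dimmer 50% of probesets, where ITGB2, ITGAM and ITGB3 were not tested, and 3 to 6 with 1 array left out. Of these, 0 to 1 was lower in MIX (1 without ISe 5, MIX 8 or MIX 9), and 1, ITGAV, was lower with trended moderation, with array quality weights, and without MIX 1 and MIX 8. The leukocyte median was 0.26 without the dimmer 50%, where only ITGA4 and ITGAL were tested. It was 0.23 without MIX 1 and MIX 8, and 0.041 to 0.22 with 1 array left out. The median of the other integrins was -0.014 without MIX 1 and MIX 8. Relations past the threshold, 7, became 2 with group means subtracted and 0 without the 2 farthest arrays, 10 without MIX 1 and MIX 8 and 9 after quantile normalisation. The sign turned in 21 of 39 members in at least 1 alternative, but in none of ITGB2, ITGAL, ITGAM, ITGA6 and ITGB3. Without MIX 1 and MIX 8 it turned to -0.21 in ITGA11, -0.020 in ITGA7, -0.028 in ITGB1, -0.029 in ITGB4, -0.014 in ITGB5, -0.035 in ITGB8, 0.14 in LAMA1, -0.18 in LAMA3 and -0.043 in LAMB2. With array quality weights it turned to -0.034 in ITGA11, 0.0083 in ITGA2B, 0.015 in LAMA1 and -0.048 in LAMA3, and after quantile normalisation to 0.017 in LAMA1. With 1 array left out, differences ran from -0.096 to 0.24 (ITGA11), -0.028 to 0.17 (ITGA2), -0.087 to 0.076 (ITGA2B), -0.028 to 0.077 (ITGA3), -0.038 to 0.22 (ITGA4), -0.11 to 0.030 (ITGA9), -0.065 to 0.12 (ITGAD), -0.094 to 0.070 (ITGAE), -0.0037 to 0.14 (ITGB1BP2), -0.028 to 0.081 (ITGB4), -0.022 to 0.40 (ITGBL1), -0.081 to 0.068 (LAMA1), -0.14 to 0.064 (LAMA3), -0.022 to 0.17 (LAMA4), -0.021 to 0.058 (LAMB2), -0.067 to 0.0073 (LAMB3) and -0.053 to 0.073 (LAMC1). The cause was not tested. Signal over background is not known here.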
